A study of Mus musculus with 14 samples.

Results

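Erythroid cells of the normal mouse liver were described in a single-cell RNA library of 5063 cell barcodes. They were chosen by their own transcripts: a barcode counted as erythroid where the adult globin genes Hba-a1, Hba-a2, Hbb-bs and Hbb-bt made up at least 50% of its unique molecular identifiers (UMIs, which stand for single captured RNA molecules). The rule set no minimum of genes and took 300 of the 5063 barcodes. Because globin UMIs chose the members, the globin share is given as a description only. They were set against 4700 other barcodes, each with 200 or more genes and no more than 20% of its UMIs from mitochondrial genes.

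The series is about the receptor P2Y14 in hepatic stellate cells (HSC), cells beside the liver sinusoids that store vitamin A, and about hepatocyte death. Its single-cell library came from perfused and digested C57BL/6 liver without damage, with all cell types kept. Of 13 bulk libraries, 4 held quiescent, unplated HSC sorted for vitamin A and for the fluorescent protein TdTom, which was switched on by Cre under control of the HSC gene Lrat (strain label LratCre+, TdTom+ in C57BL/6J). A further 3 held whole uninjured liver of the same strain label. The last 6 held HSC of Balbc mice in culture, 3 kept for 24 h as controls and 3 treated for 24 h with 10 µM UDP-glucose, a ligand of P2Y14, and no sort is described for these. None of the groups had liver damage, the labels name no age, and they do not say which libraries came from different animals. With 1 single-cell library, nothing in it could be tested between conditions, and its intervals cover counting error only.

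Red blood cells mature from dividing erythroblasts, which load themselves with hemoglobin, stop dividing, expel the nucleus and leave the marrow as reticulocytes. A reticulocyte makes no new RNA. It still translates the messages it carries while its mitochondria, ribosomes and surplus proteins are removed by autophagy and by ubiquitin and the proteasome. Hemoglobin joins α-globin and β-globin chains around heme, and Alas2, the erythroid form of the first enzyme of heme synthesis, sets the pace of heme production in these cells. In the adult liver such cells arrive with the blood, whereas the fetal liver is itself a site of red cell formation.

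The α-globin genes Hba-a1 and Hba-a2 are tandem copies on chromosome 11, and the adult β-globin genes of the C57BL/6 strain, Hbb-bs and Hbb-bt, lie on chromosome 7. The 250 bases before the start of 3 globin genes and of Alas2 are shown here because the 4 globin genes define the erythroid barcodes and Alas2 marks them, and because the UMIs of the α pair were nearly equal while those of the β pair were not. The sequences and positions are RefSeq's, build GRCm38.p6, 5′ to 3′ on the strand of the gene. Capitals mark every match, on either strand, to TATAA (the core of a TATA box), CCAAT (a box bound by NF-Y), CACCC (a box bound by Klf1 and its relatives) and GATAA (the core of a GATA factor motif), and neighbouring matches overlap in places.
Hba-a1, chr11:32283422-32283671, plus strand: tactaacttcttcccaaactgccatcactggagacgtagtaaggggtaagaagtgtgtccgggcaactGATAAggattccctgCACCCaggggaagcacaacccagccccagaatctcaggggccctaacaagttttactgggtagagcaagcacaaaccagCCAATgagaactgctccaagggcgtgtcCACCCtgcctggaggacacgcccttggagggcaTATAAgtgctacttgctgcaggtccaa
Hbb-bs, chr7:103827929-103828178, minus strand: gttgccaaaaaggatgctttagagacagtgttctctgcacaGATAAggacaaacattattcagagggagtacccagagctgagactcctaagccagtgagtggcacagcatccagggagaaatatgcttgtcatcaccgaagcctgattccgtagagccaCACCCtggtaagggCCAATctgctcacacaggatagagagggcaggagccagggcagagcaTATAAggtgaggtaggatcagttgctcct
Hbb-bt, chr7:103813924-103814173, minus strand: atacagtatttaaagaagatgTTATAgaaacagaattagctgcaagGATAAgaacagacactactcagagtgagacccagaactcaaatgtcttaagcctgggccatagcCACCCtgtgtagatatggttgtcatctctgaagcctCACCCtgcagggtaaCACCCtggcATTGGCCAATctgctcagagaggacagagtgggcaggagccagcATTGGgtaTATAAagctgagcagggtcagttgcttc
Alas2, chrX:150547167-150547416, plus strand: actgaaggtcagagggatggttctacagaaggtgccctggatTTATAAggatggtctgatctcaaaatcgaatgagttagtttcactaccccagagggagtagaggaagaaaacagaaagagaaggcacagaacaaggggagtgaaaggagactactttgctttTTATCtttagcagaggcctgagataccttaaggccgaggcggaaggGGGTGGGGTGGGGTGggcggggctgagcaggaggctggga
The Hba-a2 window was the same as that of Hba-a1 in all 247 of 247 bases compared after a shift of 3 bases. Hbb-bs and Hbb-bt matched in 127 of 249 bases (51.0%), the best of the shifts of up to 10 bases tried, and no gaps were allowed. All 4 globin windows held each of the 4 motifs, whereas Alas2 held 3 of them and no CCAAT. Among all 32851 promoter windows of this length, 22.8% held TATAA, 33.8% CCAAT, 52.0% CACCC and 22.6% GATAA on either strand, and 0.968% held all 4. A match is a description of the letters and not a bound site. A link between the likeness of these windows and the UMIs of the pairs was not tested.

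Globin RNA separated the erythroid barcodes from the rest of the library. Their globin share ran from 53.9% to 96.6% with a median of 93.5%, and 248 of the 300 were at 90% or more. Among all barcodes only 8 lay from 30% to under 50% and 15 from 50% to under 70%. The members just inside the threshold had 53.9%, 54.6% and 54.8% globin UMIs, and the barcodes just outside had 49.97%, 44.97% and 40.3%. The 300 barcodes were 5.93% of all barcodes (95% exact binomial interval 5.29% to 6.61%).

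**Figure D1:**
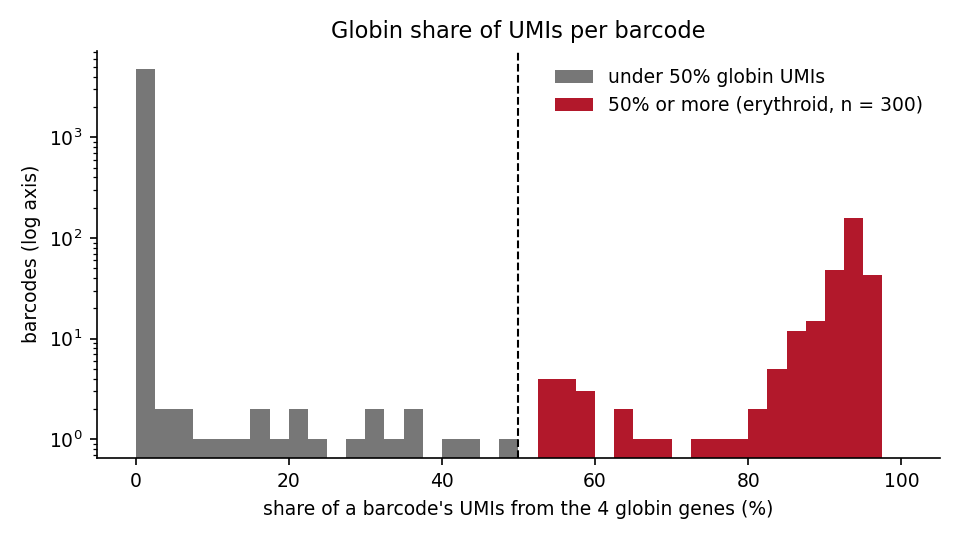
Number of barcodes (log axis) by the share of their UMIs that came from the 4 globin genes, in bins over the whole library. Erythroid barcodes (red) stand at 50% or more, most of them above 90%, and few barcodes lie near the dashed threshold.

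Erythroid barcodes were rich in UMIs and poor in genes. They held a median of 3511.5 UMIs (968 to 10744), against 1955 (968 to 47577) in the other barcodes, yet only 219 UMIs (48 to 4635) outside the globins. They showed a median of 167 genes (49 to 2111) against 1063 in the other barcodes, so that 192 of the 207 barcodes with under 200 genes in the whole library were erythroid. A filter at 200 genes would keep 108 of the 300 (36.0%). They carried 8.71% of the UMIs of the library and 96.5% of its globin UMIs.

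The label was checked against markers that the rule did not use. Alas2 had a UMI in 279 of 300 erythroid barcodes (93.0%) and in 296 of 4700 others (6.30%). The groups differed in depth, so each barcode was also thinned to 100 UMIs outside the globins, which left out 36 erythroid barcodes. Alas2 was then seen in 82.2% of erythroid barcodes (77.0% to 86.6%) and in 0.468% of the others (0.294% to 0.708%). Of all Alas2 UMIs in the library 83.9% lay in erythroid barcodes. In CPM, a gene's UMIs scaled to one common total with the globins left out, Alas2 was at 19429 CPM against 33.0, a ratio of 589 (526.2 to 661).

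Of the 300 barcodes, 16 carried 20 or more UMIs of Malat1, a nuclear RNA found in most nucleated cells. These 16 had globin shares of 53.9% to 81.9% and a median of 1649.5 UMIs outside the globins, against 215.5 in the other 284. Their Alas2 level was 4980 CPM against 25606. Their stellate markers summed to 10700 CPM against 3625, their T and NK cell markers to 4105 against 547 and their hepatocyte markers to 4643 against 19852. Their Malat1 level was 25573 CPM against 5740 in the other 284 and 21862 in the barcodes outside the erythroid set. Whether they are nucleated erythroid cells or barcodes with more than 1 cell was not tested, and no doublet caller was run. Without them 125 genes in place of 115 were at least 4-fold higher, 37 in place of 34 of the erythroid lists, and 150 in place of 96 at least 4-fold lower.

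The α chain took more globin UMIs than the β chain in erythroid barcodes. Hba-a1 held 30.7% of globin UMIs, Hba-a2 29.6%, Hbb-bs 34.0% and Hbb-bt 5.65%. The α to β ratio was 1.52 (1.51 to 1.53) over the summed UMIs, and ran from 0.816 to 8.05 over single barcodes with a median of 1.55. Hba-a2 kept a narrow share of the α UMIs in each barcode, 42.9% to 54.8%. Hbb-bt varied far more, from 0.601% to 27.7% of the β UMIs, with a median of 12.2%. The transcripts of the pairs share sequence: 86.9% of the 50-base windows of the Hba-a2 transcript also occur in that of Hba-a1, and 65.8% of those of Hbb-bs occur in that of Hbb-bt. In the last 200 bases, near which 3′ libraries are read, 56.3% of the Hba-a2 windows are shared and none of the Hbb-bs windows, so the split within the α pair is less certain than that within the β pair.

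Globin genes of the embryo and the θ-globin genes were barely seen. Hbq1a, a θ-globin gene, had 15 UMIs in erythroid barcodes and 1 in the others, and its copy Hbq1b had 10 and 0. The embryonic β-like genes Hbb-y and Hbb-bh1 had 2 UMIs each and the embryonic α-like Hba-x had none. These counts set the adult genes apart from the embryonic ones in the liver sampled, at a depth of 954778 globin UMIs.

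Outside the globins, 34 of 133 erythroid-list genes with enough UMIs (25.6%) were at least 4-fold higher in erythroid than in other barcodes, beside 115 of 11008 genes of the whole table (1.04%). The lists held 174 genes beside the 4 globins, of which 168 were in the table, and 35 of these had too few UMIs to be counted (under 50 over both groups). Their median ratio was 1.26, against 0.757 over all genes tested. Since the barcodes were chosen in the same contrast, these values describe them and test nothing. These lists leave out the early erythroid and progenitor list and the cell division list, which are described apart. In the other direction 0 of the 68 genes of these lists that could be counted were at least 4-fold lower, beside 96 of 3197 genes (3%). The 115 higher genes held 14.7% of the UMIs outside the globins in erythroid barcodes and 1.16% in the others.

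Heme synthesis stood out through its erythroid entry step and its last step. Of 14 genes tested, Alas2, Fech, Slc25a39 and Urod were at least 4-fold higher. Fech, which inserts iron into protoporphyrin to give heme, was at 3456 CPM against 49.3 (ratio 70.1, 61.0 to 80.4). Slc25a39, a mitochondrial carrier, was 5.59-fold higher (4.29 to 7.17) and Urod, an enzyme in the middle of the pathway, 4.85-fold (2.55 to 8.43) on 13 UMIs. Alas1, the form of the first enzyme used by the liver and other tissues, was at 90.7 CPM against 70.6, a ratio whose interval spans 1. Tmem14c, a carrier of heme precursors, had a ratio of 0.808 (0.403 to 1.45).

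Iron handling in these barcodes was led by mitochondrial import and by ferritin. Slc25a37 (mitoferrin 1, which brings iron into mitochondria) was 25.6-fold higher (20.3 to 32.1). Glrx5 and Iscu, which build iron-sulfur clusters, were 3.78-fold (2.76 to 5.05) and 3.67-fold (2.89 to 4.59) higher. Ftl1, the ferritin light chain, was the most abundant of the list at 16023 CPM against 7136, and the heavy chain Fth1 was at 4303 against 2883. The transferrin receptor Tfrc, through which developing red cells take up iron, had 1 UMI in all 300 barcodes. No difference from the other barcodes is read from that count. In all, 2 of 14 tested iron genes passed 4-fold, Slc25a37 and Ncoa4, the ferritin receptor of autophagy, the second on 7 UMIs.

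Red cell membrane genes gave 4 of 15 tested members at least 4-fold higher. Cd24a, a surface protein of maturing red cells and of some other blood cells, was at 2902 CPM against 24.2 (ratio 120, 101.3 to 143). Epb41 (protein 4.1, which ties spectrin to the membrane) was 24.3-fold higher (18.6 to 31.4), and Tspan33, a tetraspanin, 26.9-fold (13.5 to 50.05). Aqp1, the water channel that red cells share with endothelium, was lower, 1471 CPM against 2223. Slc4a1 (band 3, the anion exchanger) and Tspo2, an erythroid cholesterol-binding protein, were named after their values were seen. They had 20 and 16 UMIs in erythroid barcodes and none in the other 4700, at least 731.5-fold and 585-fold higher when 3 UMIs are allowed for a count of 0 over the group.

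Genes for the removal of organelles and proteins were the list with the most members at 4-fold, 10 of 21. Ube2l6, a conjugating enzyme for ubiquitin and for the ubiquitin-like protein ISG15, was at 6278 CPM against 39.3 (ratio 160, 141 to 181) and had a UMI in 207 of the 300 barcodes. Bnip3l (Nix, the receptor that marks reticulocyte mitochondria for autophagy) was 17.9-fold higher (15.9 to 20.2). The autophagosome proteins Gabarapl2 and Map1lc3b were 10.9-fold (9.43 to 12.5) and 5.55-fold (4.68 to 6.54) higher. Ubb, a polyubiquitin gene, was at 9140 CPM against 1383, and the ubiquitin ligase Rnf10 was 12.3-fold higher (9.70 to 15.4). The other 4 members past 4-fold were Ube2o, Rnf11, Psmf1 and Fbxo7.

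Antioxidant and carbonic anhydrase genes gave 5 of 17 at 4-fold. Gpx1 (glutathione peroxidase) was at 6248 CPM against 1310 (ratio 4.77, 4.40 to 5.17), and Prdx2, the main peroxiredoxin of red cells, at 1733 against 155 (ratio 11.2, 9.50 to 13.1). Car2 (carbonic anhydrase 2) was 84.4-fold higher (66.0 to 108), but its 120 UMIs lay in only 29 barcodes. Catalase (Cat) and Gpx4 were at ratios of 1.47 (1.14 to 1.88) and 0.935 (0.734 to 1.18).

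Of the glycolytic genes, 1 of 16 passed 4-fold. It was Bpgm, the enzyme that makes 2,3-bisphosphoglycerate and so sets the oxygen affinity of hemoglobin, at 5421 CPM against 15.8 (ratio 343, 289 to 410). The other glycolytic enzymes stood near the level of the rest of the liver: Gapdh had a ratio of 0.594 (0.413 to 0.827), Ldha 0.847 (0.547 to 1.25) and Pkm 1.33 (0.864 to 1.95).

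Transcription factors of the erythroid program gave few UMIs. Of 14 tested members 1 passed 4-fold, Isg20, a 3′ exonuclease that the list also held, at 1491 CPM against 15.4. Lmo2, a partner of Gata1 and Tal1, was 2.16-fold higher (1.35 to 3.28) on 22 UMIs, and Foxo3, a factor of late red cell maturation, 2.75-fold (1.18 to 5.49) on 8. Hemgn, a nuclear protein of blood cell precursors, had 7 UMIs in 6 erythroid barcodes and none in the other 4700, at least 256-fold higher when 3 UMIs are allowed for the 0. Gata1, Klf1, Nfe2 and Gfi1b had no UMI in the 300 barcodes and 1, 9, 6 and 0 in the others, too few for the depth to show a difference. Foxo3, Hemgn and these 4 were named after their values were seen. 

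The 24 genes of the cell division list summed to 725.5 CPM in erythroid barcodes against 253 in the others (ratio 2.87, 2.24 to 3.62), and to a ratio of 3.30 (2.498 to 4.28) without the Malat1-rich barcodes. Of their 72 UMIs 57 came from Ube2c, the ubiquitin-conjugating enzyme of the anaphase-promoting complex, which was 39.3-fold higher (28.5 to 53.5) and the 1 gene of 17 tested to pass 4-fold. The median ratio of the 17 was 0, and 13 of the 24 had no UMI in erythroid barcodes, so the summed ratio rests on Ube2c. Mki67 and Top2a, markers of cycling cells named after their values were seen, had no UMI where 0.993 and 1.54 were anticipated from the other barcodes, so a difference was not detectable at this depth. Nusap1, a mitotic gene outside the list that was likewise chosen after its value was seen, had 16 UMIs (ratio 25.4). The histone gene Hist1h2ap, also outside the list and chosen after its value was seen, went the other way. It had 1 UMI where 15.2 were anticipated (ratio 0.0660). Of the early erythroid and progenitor genes, 1 of 12 tested was at least 4-fold higher. Of the 4 that could be counted as lower, 1 was at least 4-fold lower, Cd44, on 2 UMIs. Kit stood at a ratio of 1.07 (0.586 to 1.81), and 7 of the 16 listed genes had no UMI in erythroid barcodes.

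Further genes of late red cells completed the profile, with 7 of 18 at 4-fold, Fech among them. Fam46c, a poly(A) polymerase, was 98.3-fold higher (74.6 to 129), the interferon-induced Rsad2 12.3-fold (8.80 to 16.9) and the survival gene Bcl2l1 9.94-fold (7.402 to 13.1). Outside the lists, the highest ratios among genes with at least 20 UMIs and a UMI in at least 10% of the barcodes belonged to Rec114 (456, 274 to 797), a gene known from meiosis, to the ring finger gene Mkrn1 (100.4, 90.4 to 111) and to Fam220a (96.7, 83.8 to 112). Fam213a, the iron-sulfur gene Isca1, Ccndbp1, Tfdp2, Dcaf12 and Ppp1cb followed at 52.4, 51.2, 25.4, 21.4, 15.8 and 12.3. Sec61g, a subunit of the protein channel of the endoplasmic reticulum, came next at 10.9.

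**Figure D2:**
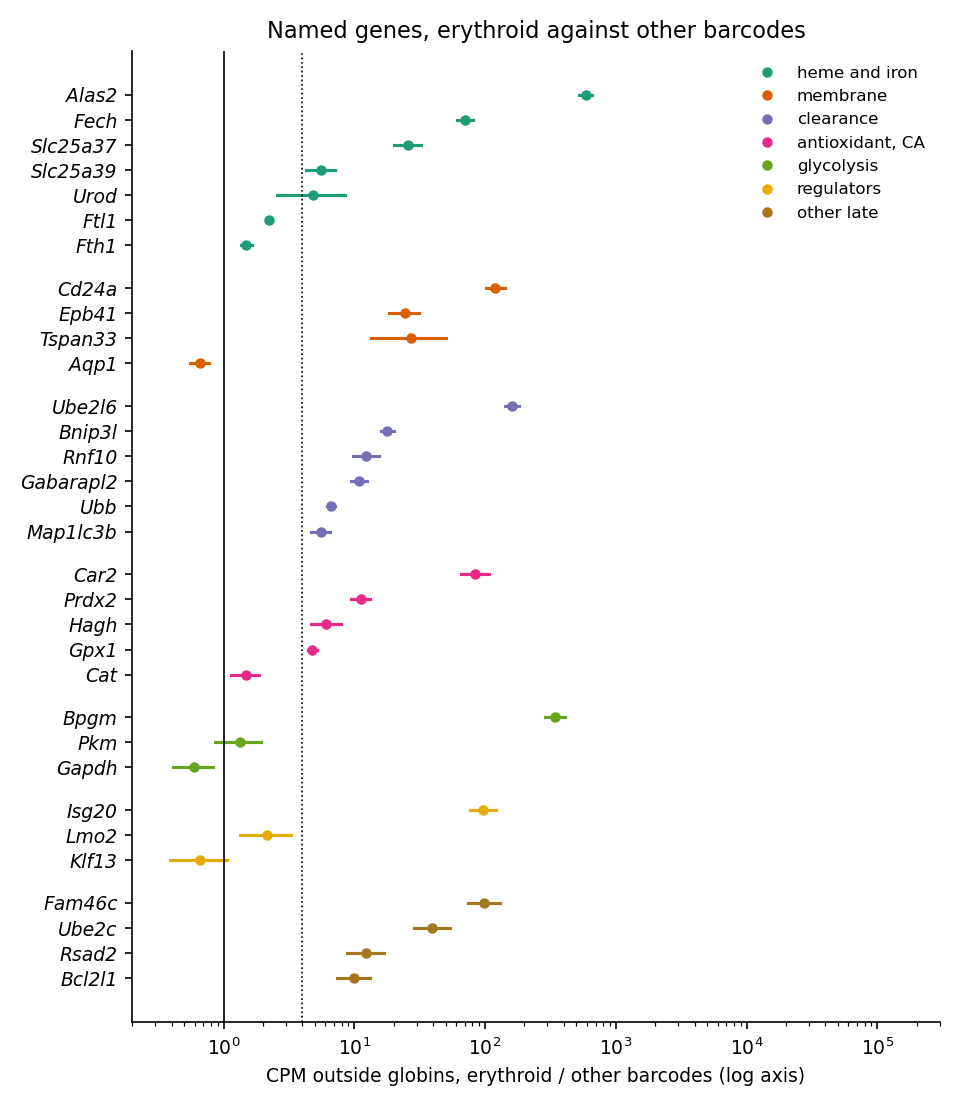
Ratio of CPM outside the globins, erythroid over other barcodes (log axis), with 95% counting intervals, for named genes grouped by role. The solid line marks no difference and the dotted line 4-fold; Alas2 and Bpgm lie above 300, while Aqp1 and Gapdh lie below 1.

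Of the genes with at least 20 UMIs anticipated from the other barcodes, 4 were at least 4-fold lower in erythroid barcodes. They were Rrbp1, a ribosome receptor of the endoplasmic reticulum (6 UMIs, ratio 0.225, 0.0826 to 0.491), Rnaset2a, a lysosomal ribonuclease (5 UMIs, ratio 0.230, 0.0745 to 0.537), the predicted gene Gm9843 (19 UMIs, ratio 0.2198) and the pseudogene Rpl13-ps3 (5 UMIs, ratio 0.235). The last pair fell outside the naming rule and was named after its values were seen. Ribosomal protein genes took 11.5% of the UMIs outside the globins against 16.9% in the other barcodes. Mitochondrial transcripts took 10.4% (10.2% to 10.5%) against 5.25%, and all 13 were above a ratio of 1 (1.37 to 5.31). The lowest and highest mitochondrial share of UMIs outside the globins in single erythroid barcodes were 1.30% and 58.0%.

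Markers of other liver cells were also present in erythroid barcodes. The 17 hepatocyte markers, all with UMIs, summed to 15297 CPM against 23337 (ratio 0.655). The 15 sinusoidal endothelial markers reached a ratio of 0.807, the 14 Kupffer and macrophage markers 0.812, the 13 T and NK markers 0.839, the 9 B and plasma cell markers 0.474 and the 15 stellate markers 1.30. The Malat1-rich barcodes moved several of these values. In the other 284 the T and NK ratio was 0.285 (0.201 to 0.391), and the stellate ratio turned to 0.818 (0.7195 to 0.925). Hepatocyte markers were then at 0.851, B and plasma cell markers at 0.595, Kupffer and macrophage markers at 0.853 and endothelial markers at 0.737. Of 10 platelet markers 6 were at 0, Ppbp and Gp9 included, and of 11 neutrophil markers 9 were at 0, Ly6g included. The part of this RNA in the values above was not tested. For Alas2 and Bpgm the level in the other barcodes was at most 33.0 CPM.

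Erythroid barcodes differed among themselves in Hbb-bt. When the 300 were ordered by the Hbb-bt share of β UMIs and divided into a low, a middle and a high group of 100, a step chosen after seeing the data, the groups covered 0.601% to 6.98%, 7.01% to 16.5% and 16.5% to 27.7%. Alas2 varied by a small factor, with 16284, 19265 and 20741 CPM (high over low 1.27, 1.11 to 1.46), and the α to β ratio was 1.64, 1.44 and 1.54. Of 228 genes with at least 60 UMIs in erythroid barcodes, 20 had an interval above 2-fold higher in the high group and 0 above 2-fold lower. Among the 228, 43 were at least 4-fold higher in erythroid than in other barcodes, and 18 of these were in the 20. The 20 also held the stellate marker Dcn, with 11, 10 and 183 UMIs (6.22-fold, 3.40 to 12.7). Some late erythroid transcripts differed widely. Bpgm was at 832, 5344 and 7203 CPM (8.66-fold, 5.08 to 16.0). Mkrn1 had 8, 278 and 410 UMIs (19.2-fold, 9.64 to 44.7) and Cd24a 3, 126 and 159 (19.8-fold, 6.66 to 97.2).

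Globin UMIs chose the barcodes of all groups, so their median globin shares are a description only. These shares were 93.5%, 93.3% and 93.5% in the low, middle and high group. The low group kept Alas2 but held little of several other erythroid RNAs. Bnip3l was 7.44-fold lower there than in the high group (3.96 to 15.8) and Fech 2.88-fold (1.91 to 4.51). Car2 had 0, 75 and 45 UMIs, at least 5.61-fold higher in the high group. Ube2l6 (4279, 6867 and 6536 CPM) and Isg20 (1070, 1603 and 1556) differed less, and Rec114 had a high over low ratio of 0.836 (0.461 to 1.58). All 12 mitochondrial genes with at least 60 UMIs went the other way, with ratios of 0.385 to 0.661, so that mitochondrial RNA took 16.5%, 9.94% and 8.41% of the UMIs outside the globins.

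Depth moved with the Hbb-bt share. The groups had median totals of 1778, 3888.5 and 4709 UMIs, and Spearman's rho between the Hbb-bt share and total UMIs was 0.669 over the 300 barcodes, all of 1 library. In 103 barcodes with 2000 to 4000 UMIs, divided at the middle by Hbb-bt share, the high over low ratio was 1.27 for Alas2 (1.06 to 1.51), 4.46 for Bpgm (2.59 to 8.16), 9.45 for Cd24a (3.44 to 36.2) and 16.0 for Mkrn1 (7.53 to 40.5). Bnip3l was then at 3.51 (1.84 to 7.25), Fech at 2.89 (1.71 to 5.12), and Car2, with 0 UMIs against 8, at least 2.29-fold higher. Hepatocyte markers took 2.193%, 1.19% and 1.57% of UMIs outside the globins in the low, middle and high group, and barcodes with 20 or more Malat1 UMIs numbered 4, 5 and 7.

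**Figure D3:**
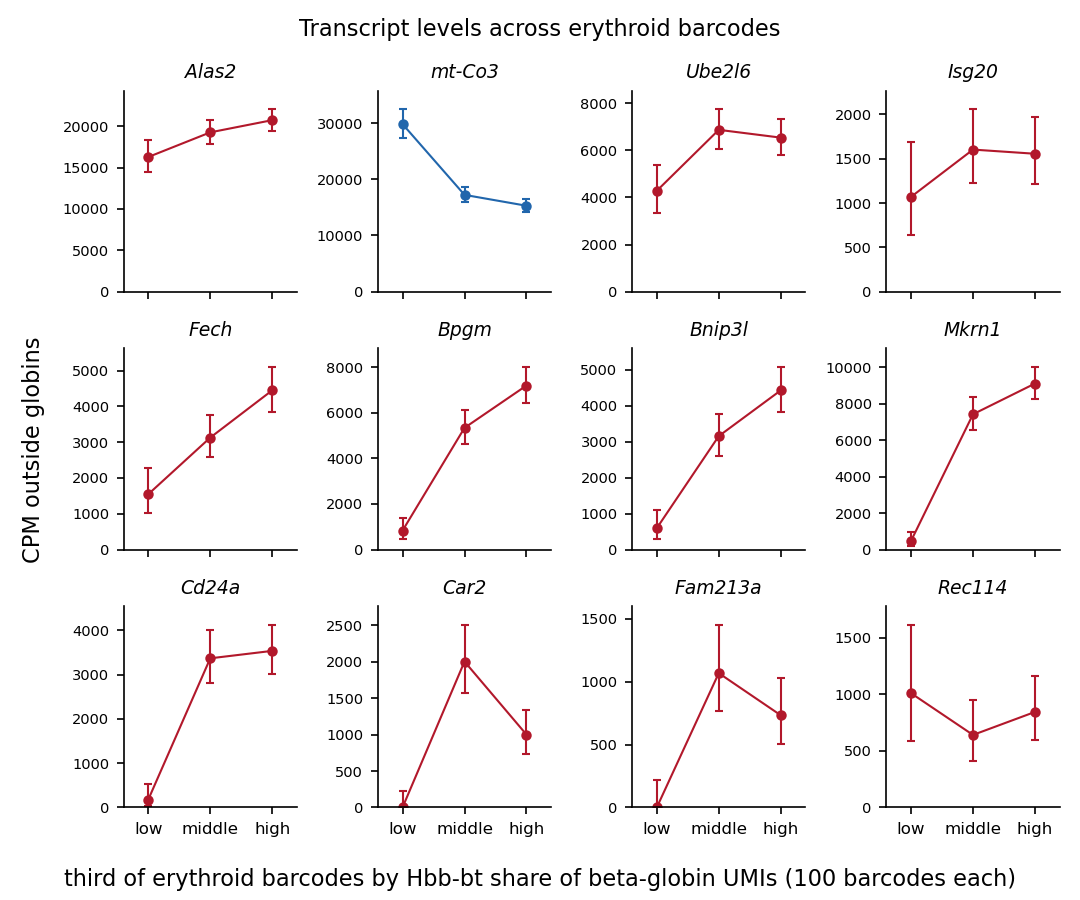
Level in CPM outside the globins of 12 genes in the low, middle and high group of erythroid barcodes by Hbb-bt share of β-globin UMIs (100 barcodes each), with 95% counting intervals. Alas2 varies little, mt-Co3 is highest in the low group, and Bpgm, Bnip3l, Mkrn1 and Cd24a are low there.

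Globin RNA was also found at a low level in nearly all other barcodes, but in other proportions. Of the 4700, 94.7% carried a globin UMI (77.2% after thinning to 900 UMIs), with a median of 3. The 4404 barcodes with 1 to 19 globin UMIs had an α to β ratio of 0.611 (0.593 to 0.631), against 1.52 in erythroid barcodes. Hba-a2 made up 32.4% of their α UMIs (31.3% to 33.6%), against 49.1% (48.96% to 49.2%), and Hbb-bs 54.3% of all their globin UMIs, against 34.0%. The β chain dominated where globin was scarce and the α chain where it was abundant.

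Among the other barcodes, those with 20 or more globin UMIs had higher α to β ratios. Within 1 to 19 UMIs the ratio showed no rise, at 0.643, 0.605, 0.621 and 0.589 for 1, 2 to 4, 5 to 9 and 10 to 19. It was 1.02 (0.846 to 1.22) in the 18 barcodes with 20 to 49 globin UMIs, 1.37 (1.14 to 1.65) in the 7 with 50 to 99 and 1.73 (1.68 to 1.79) in the 20 with 100 or more. These 20 barcodes, with globin shares of 5.87% to 49.97%, held 47.7% of the globin UMIs outside the erythroid set but 12 of its 359 Alas2 UMIs. Their Hbb-bt share of β was 6.27% (5.67% to 6.92%), near the upper end of the low group of erythroid barcodes. Alas2 UMIs amounted to 0.202% of the globin UMIs in erythroid barcodes, 0.0732% in these 20 and 1.93% in the other barcodes with under 100.

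**Figure D4:**
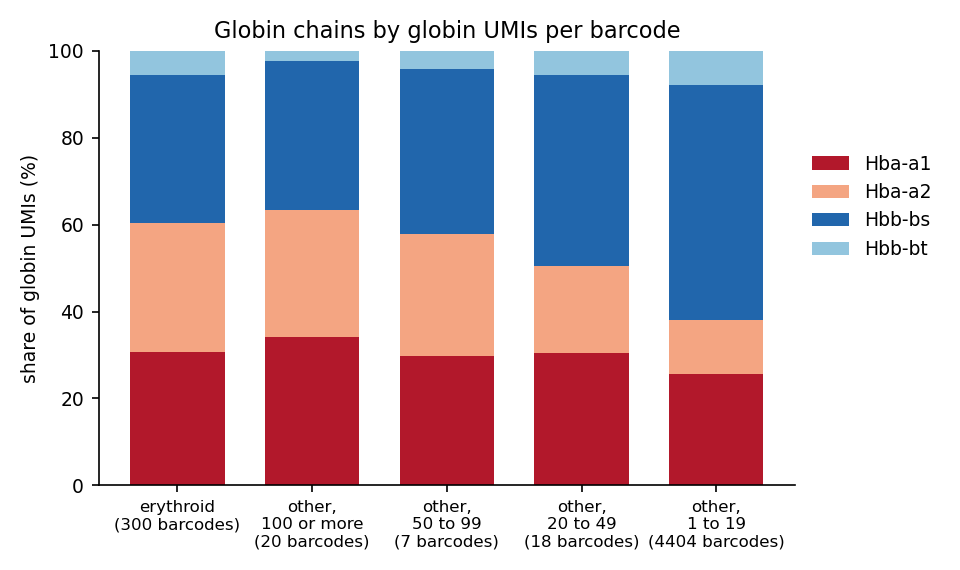
Share of globin UMIs (%) taken by each globin gene in erythroid barcodes and in the other barcodes by their number of globin UMIs. Hbb-bs takes 54.3% in barcodes with 1 to 19 globin UMIs and 34.0% in erythroid barcodes, while Hba-a2 takes 12.3% and 29.6%.

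The bulk libraries, which the choice of barcodes did not use, showed the same genes in whole liver. In the 3 liver libraries Hba-a1 was at 74.6, 105 and 121 TPM (transcript abundance scaled for length and to a common library total), Hba-a2 at 127, 161 and 178, Hbb-bs at 178, 203 and 219, Hbb-bt at 22.8, 29.5 and 32.4 and Alas2 at 60.5, 69.0 and 69.0. In the 4 quiescent HSC libraries Hba-a1 was listed at 0 in 3 and at 2.12 in replicate 2, and Alas2 likewise at 0 in 3 and at 0.219 in replicate 2. Hba-a2 was at 0, 5.05, 0 and 0.551 TPM and Hbb-bs at 0, 4.65, 2.91 and 0. Every liver library was above every quiescent library for the 4 globins and Alas2. Most genes differed between these groups, with 67% of 12643 genes called higher and 10.9% lower in quiescent HSC in the test below. Separation is thus not particular to the globins and Alas2, and the share of all genes without overlap was not counted. In a bulk sample fewer cells of a type and less RNA per cell cannot be told apart, and quiescent cells and liver stand in separate tables.

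On the log2(TPM + 1) scale, limma with Benjamini-Hochberg adjustment over 12643 genes gave falls in quiescent HSC against liver (n = 4 and 3) of 6.22 for Hba-a1 (SE 0.372, adjusted p = 2.4e-08), 6.47 for Hba-a2 (SE 0.523, adjusted p = 3.2e-07), 6.53 for Hbb-bs (SE 0.549, adjusted p = 4.5e-07), 4.77 for Hbb-bt (SE 0.159, adjusted p = 2.1e-10) and 6.00 for Alas2 (SE 0.127, adjusted p = 7.7e-12). The median over all genes was 1.62 on the same scale, since 67% of genes were called higher and 10.9% lower in quiescent HSC at an absolute change of at least 1. A median-of-ratios rescaling brought that median to -0.03, with 3289 genes higher and 3470 lower, and left the globins and Alas2 lower.

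The genes that marked erythroid barcodes did not move as a block between the bulk groups. Of the 4 globins and the 34 genes at 4-fold, 37 were in the bulk tables and 34 passed a mean of 1 TPM. Of these 10 were lower and 17 higher in quiescent HSC, with a median change of 0.94. The 10 were the globins, Alas2, Slc25a39, Tspan33, Gpx1, Hagh and Gclm. After rescaling 18 were lower and 5 higher. Ubb, at 3169 ± 142 TPM (SD, n = 4) in quiescent HSC and 347 ± 49.7 (n = 3) in liver, and Isg20, at 32.8 ± 3.07 and 1.93 ± 0.445, were the furthest higher after Benjamini-Hochberg adjustment in limma (log2 changes 3.20 and 3.53). Fech was at 55.5 ± 2.59 and 36.7 ± 8.34 TPM and Bpgm at 11.2 ± 0.644 and 4.68 ± 0.647, and both turned lower under rescaling. The log2 change of Fech, 0.61, did not reach 1 before rescaling. Ube2l6 (88.0 ± 7.39 and 31.3 ± 4.00 TPM) turned lower as well.

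Cd24a, prominent in erythroid barcodes, was low in bulk liver, at 1.07, 1.81 and 2.82 TPM beside 60.5 to 69.0 TPM of Alas2. Its UMIs in erythroid barcodes numbered 288 beside 1928 of Alas2. Its mean was under 1 TPM over the libraries compared, and it was not tested. The Alas2 value was 12.5% to 15.03% of the summed globin TPM in liver, where TPM is scaled by length, against 0.202% by UMIs in erythroid barcodes. The α to β ratio in liver, by TPM, was 0.9996 to 1.19 and the Hbb-bt share of β 11.3% to 12.9%. What sets the bulk and single-cell values apart was not tested.

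**Figure D5:**
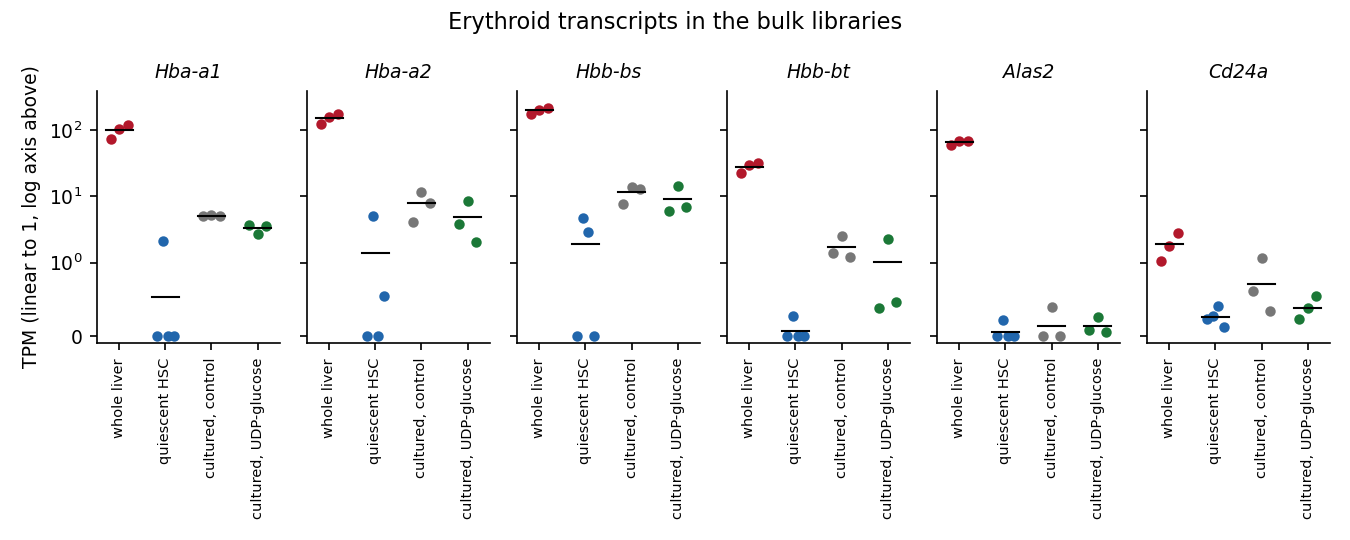
TPM per library (points; linear to 1 and log above) and group mean (line) of the 4 globins, Alas2 and Cd24a in whole liver (n = 3), quiescent HSC (n = 4) and cultured HSC without and with UDP-glucose (n = 3 each). Globins and Alas2 are highest in whole liver, quiescent replicate 2 carries most of the globin of its group, and Cd24a stays at or below 2.82 TPM in every library.

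Cultured HSC held more globin RNA than the sorted quiescent cells and hardly any Alas2. The summed globin TPM was 18.3, 33.3 and 27.2 in control cultures and 14.0, 28.2 and 12.9 with UDP-glucose, against 0, 12.1, 2.91 and 0.551 in quiescent HSC. Alas2 was at 0 to 0.389 TPM in the 6 cultures. Balbc mice and C57BL/6 mice differ in their β-globin haplotype, and how far this moves the β values here was not tested. The difference between cultured and quiescent cells was not tested either, since strain, sort and table differ with it.

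UDP-glucose was not associated with a detectable change in erythroid genes. Hba-a1 was at 5.06, 5.21 and 5.09 TPM in control and 3.76, 2.68 and 3.58 in treated cultures, groups that did not overlap. Its log2 change was -0.51 (SE 0.154, adjusted p = 0.302 in limma). Fech, Gclm, Rsad2 and Ube2o did not overlap between the groups either. The share of all genes without overlap was not counted, so this does not single out Hba-a1. Hba-a2 (-0.68), Hbb-bs (-0.37) and Hbb-bt (-0.50) overlapped between the groups and had adjusted p-values of 0.699 to 0.782 in limma. Of 30 erythroid genes tested, limma called 0 higher and 0 lower, beside 52 (0.428%) and 22 (0.181%) of 12161 genes. At an unadjusted limma p under 0.05 there were 3 of the 30, Hba-a1, Bnip3l and Gclm, all lower in treated cultures. Over all genes 1220 of 12161 passed the same limit, a like share, so the 3 do not set the erythroid genes apart. No other tool was run on these values.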

How the data were processed

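The single-cell matrix was deposited as raw UMI counts per gene and barcode. The deposited bulk values are TPM per gene in 3 tables. Per the submitters' processing notes the tools include Cell Ranger (no version), kallisto 0.44.0 and bcl2fastq 2.19 and the builds GRCm38 and mm10, and the names of the bulk tables credit kallisto. Per the labels, 3′ v2 chemistry was used for the single cells. All filters on cells beyond the deposited barcodes were added here: none for erythroid barcodes, and for the others 200 genes or more and no more than 20% mitochondrial UMIs, which removed 63. Mitochondrial and globin shares use all UMIs unless stated.

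UMIs were summed over barcodes and divided by all UMIs outside the 4 globins (99235 in erythroid and 10888520 in other barcodes). Ratios have exact 95% conditional intervals and shares exact (Clopper-Pearson) ones, which cover counting error only. Genes counted as higher had 50 or more UMIs over both groups, 5 or more in erythroid barcodes and a ratio of at least 4. Genes counted as lower had at least 5 UMIs anticipated in erythroid barcodes from the others.

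Bulk groups were compared with limma 3.58.1 (R 4.3.3, trend on), two-sided, after a log2 transform with a pseudocount of 1 TPM, over genes whose average across both groups reached 1 TPM, with Benjamini-Hochberg adjustment over all genes at 0.05 and, for quiescent HSC against liver, an absolute log2 change of at least 1. This scale understates the change of low genes. TPM keeps no read depth, so bulk depth is unknown. From the bulk values 26 rows named by calendar dates were left out. Since the labels do not name separate animals, p-values measure only the spread between libraries, which may be technical.

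The members, gene lists and tests were chosen with earlier results of these data known. Named genes are the globins and Alas2, up to 6 members of each list by UMIs, the genes of highest and lowest ratio outside the lists, and exceptions marked in the text. Some genes counted in the lists are not reported here by name. Alternatives were other thresholds, scalings, weights, pseudocounts and left-out libraries. Python 3.11.15, scipy 1.17.1 and pandas 2.3.3 were used.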

Additional observations from a re-analysis of the deposited data

Results flagged for a closer look

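In the 4 quiescent HSC libraries, some values stood apart from the other 3 by more than Dixon's 95% criterion. Chance meets it in about 1 of 20 groups of normally distributed values, and several genes were screened. A gene at 0 in 3 of the 4 libraries and above 0 in the last always meets it. This was so for Hba-a1, Hbb-bt, Alas2 and Tspan33, to which that rate does not apply. Replicate 2 was high for Hba-a1 (2.12 TPM), Hba-a2 (5.05), Hbb-bt (0.274) and Alas2 (0.219), and the other 3 libraries listed 3 of these genes at 0, with Hba-a2 at 0.551 in replicate 4. Without that library the falls against liver were 6.63 for Hba-a1, 7.06 for Hba-a2, 4.86 for Hbb-bt and 6.07 for Alas2 on the log2(TPM + 1) scale, each larger than with it. Tspan33 was at 0.0277 TPM in replicate 1 and at 0 in the other 3. Isg20 was low in replicate 3, at 28.2 TPM against 34.3 to 34.4 in the others.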

How the results depend on the processing

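The single-cell part rests on 1 library, so no value of it has a replicate error, and bulk depth is unknown. The gene and mitochondrial limits of the other barcodes, applied to erythroid barcodes as well, left 108 erythroid barcodes with a median of 4915 UMIs. Weighting each barcode alike gave 320 genes lower in place of 96, and leaving out the barcodes with 20 or more Malat1 UMIs, chosen after seeing the data, gave 150. At 2-fold 319 genes were higher and 549 lower, and at 8-fold 55 and 17, with 22 erythroid-list genes higher. With the globins kept in the scaling 18 genes were higher, 10528 lower and 10 erythroid-list genes higher, since globins fill most of these barcodes. Under that scaling the log2 ratios of Slc25a39 (-0.92), Urod (-1.13), Eif5 (-0.85), Ubb (-0.68), Map1lc3b (-0.93), Gpx1 (-1.15), Hagh (-0.79) and Bcl2l1 (-0.091) turned negative. Alas2 was seen in 67.2% of erythroid and 0.234% of other barcodes when thinned to 50 UMIs, and in 93.0% and 6.30% with no thinning. Thinned to 900 UMIs, 77.2% of the other barcodes had a globin UMI.

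In quiescent HSC against liver, a pseudocount of 10 gave 5030 genes higher and 903 lower. Median-of-ratios rescaling gave 3289 and 3470, with 5 erythroid genes higher and 18 lower, and quantile normalisation 3659 and 3189, with 7 erythroid genes higher. Rescaling reversed Fech (-1.29), Bpgm (-0.60) and Ube2l6 (-0.43), and quantile normalisation reversed Fech (-0.72) and Bpgm (-0.63). Leaving out each library in turn gave 10 to 11 erythroid genes lower and 17 higher each time. For UDP-glucose, no filter on low values gave 24 genes higher and 6 lower, rescaling gave 10 lower, and leaving out each library in turn gave 17 to 46 higher and 0 to 18 lower. No erythroid gene was called in any of these fits. The causes were not tested. No paired analysis was possible because the compared groups share no replicate numbers in the labels.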
